A study of Mus musculus with 5 samples.

Results

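The core genes of Notch signalling between neighbouring cells were followed in the atria of newborn mice that lack the heart transcription factor Nkx2-5 in atrial muscle. The set holds 4 receptors (Notch1, Notch2, Notch3 and Notch4), 4 activating ligands (Jag1, Jag2, Dll1 and Dll4) and 2 fringe enzymes (Lfng and Mfng). These 10 genes were taken by symbol from a count table of 40624 genes, and all 10 passed the filter on low counts that kept 17835 genes. Control atria had the genotype SLN-Cre; Nkx2-5-flox/+ and mutant atria had SLN-Cre; Nkx2-5-flox/flox. Both groups were C57BL/6 mice at postnatal day 1, and both carried the Cre recombinase and at least 1 floxed allele. Sln, whose promoter drives the Cre, is a gene of atrial muscle cells, so vessels, endocardium and stroma in the same tissue were not targeted by design. There were 3 control libraries (replicates 2, 4 and 6) and 2 mutant libraries (replicates 5 and 7), made from polyA RNA. Nothing in the labels says that each library came from its own animal, so the p-values below describe the spread between these libraries, which may be technical.

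Notch receptors are single-pass membrane proteins that are cut in 2 steps when a Jagged or Delta-like ligand on an adjacent cell pulls on them. The freed intracellular domain enters the nucleus, joins the DNA-binding protein RBPJ and switches on targets such as the Hes and Hey repressor genes. Fringe enzymes add a sugar to fucose residues on the receptor's extracellular repeats in the Golgi and thereby tune which ligands activate it. In the heart the pathway is known for its roles in endocardium, valves, coronary arteries and the mural cells around vessels.

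The libraries held 58.5 to 78.8 M gene counts, and a member had between 393 and 9385 counts in a library. Levels are given as CPM, counts per M counts of the library after scaling by edgeR's TMM factors, and differences as log2 fold changes of mutant over control with their standard error. Nkx2-5 itself, the targeted gene, had 76.7, 72.05 and 71.3 CPM in controls 2, 4 and 6 and 5.79 and 5.21 CPM in mutants 5 and 7, lower in every mutant than in any control. It fell by 3.74 ± 0.09 on the log2 scale (SE; adjusted p = 7.0e-07, edgeR, Benjamini-Hochberg). Atrial muscle markers (Myl7, Myl4, Sln and Nppa) summed to 24305 to 26455 CPM in controls and to 20612 and 19432 CPM in mutants 5 and 7, lower in both mutants than in any control. Nppa made up most of that drop, with 6205, 6767 and 5280 CPM in controls 2, 4 and 6 against 848 and 1193 CPM in mutants 5 and 7. It was called lower (log2 fold change -2.58 ± 0.18, adjusted p = 9.6e-04, edgeR). Myl7 and Myl4 overlapped between the groups, and Sln was lower in both mutants but did not pass. Summed lung epithelium markers and summed thymus and T cell markers stayed at or below 1.14 CPM. The mutant libraries differed from each other in the Notch genes. Mutant 7 was above mutant 5 in 9 of the 10 members, against 48.3% of all tested genes, and was the highest of the 5 libraries in 8 of the 10, against 26.6% of all tested genes. Results are therefore given with and without single libraries.

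Mfng and Dll4 rose in mutant atria, and no other member passed the test. Mfng rose by 0.87 and Dll4 by 0.58 on the log2 scale. Neither passed in limma-voom, or in edgeR with any 1 control left out. With edgeR's quasi-likelihood test and Benjamini-Hochberg adjustment over all tested genes, 2 of 10 members passed an adjusted p of 0.05, both higher, against 6.58% of all tested genes in either direction and 3.02% higher and 3.57% lower. The count of members called lower was 0 in edgeR, where 1 member (Dll1) had an unadjusted p under 0.05 in that direction; DESeq2 called 1 lower and limma-voom 0. The groups did not overlap in 4 members, against 37.9% of all tested genes. Both mutants were above all controls in 3 members (Mfng, Dll4 and Notch4), against 18.6% of tested genes, and below them in 1 (Dll1), against 19.2%. The median log2 fold change was 0.32 over the members and 0.01 over all tested genes, with 6 positive and 4 negative values. The tissue was measured in bulk, so more cells of a type cannot be told apart from more RNA per cell.

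**Figure D1:**
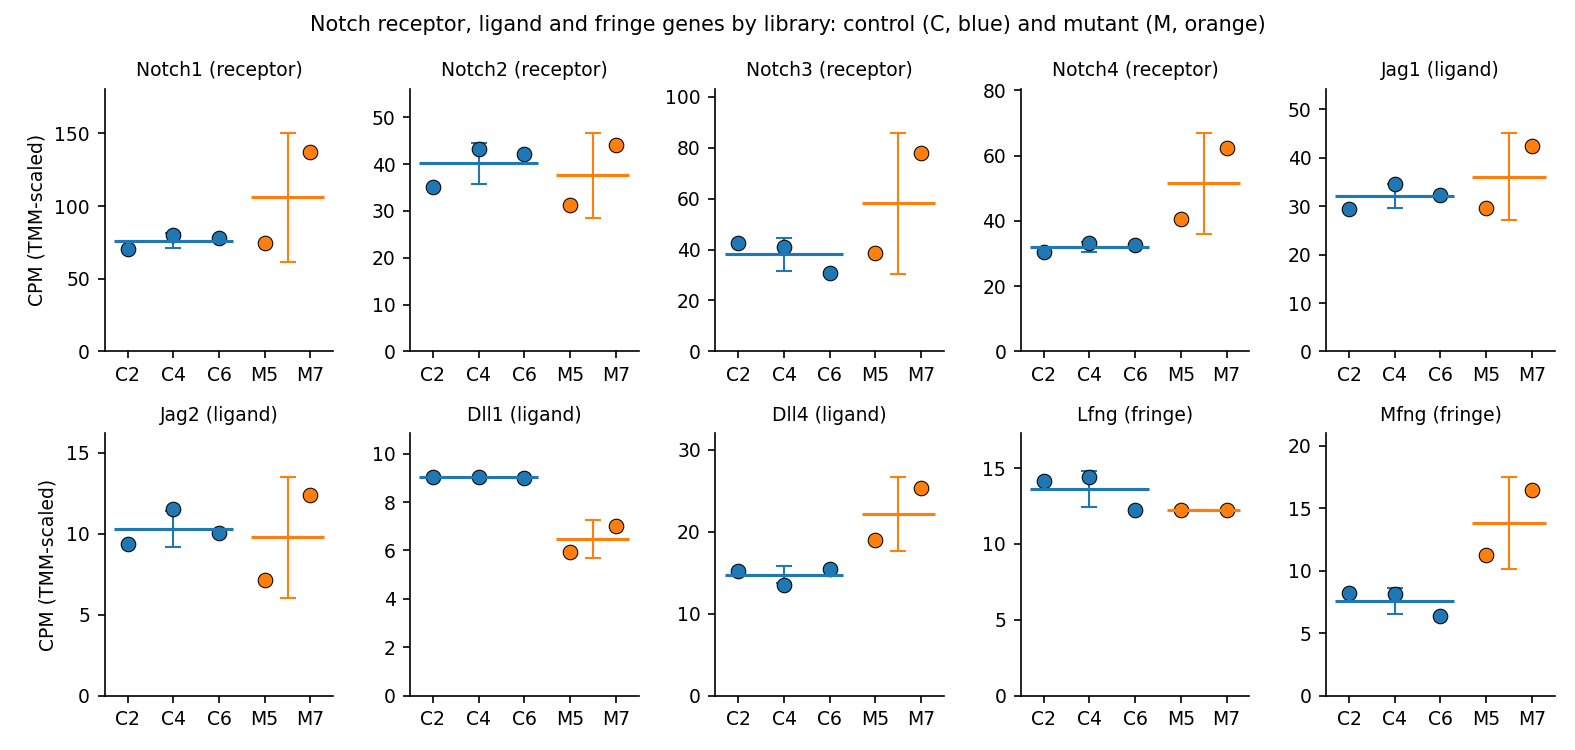
Level of each of the 10 genes in each library, in CPM on axes that start at 0. Points are libraries (C control, M mutant), horizontal lines are group means and error bars are SDs (n = 3 controls, n = 2 mutants). Both mutants lie above all controls for Mfng, Dll4 and Notch4 and below all controls for Dll1, and mutant 7 is the highest library in 8 of the 10 panels.

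Among the receptors, 0 of 4 passed edgeR's test and Notch4 came closest. It was the 1 receptor with an unadjusted p under 0.05 and the 1 receptor called by DESeq2, and limma-voom called 0. Notch4, a receptor known mainly from endothelial cells (ENSMUSG00000015468; mm9 chromosome 17, plus strand, 34701391 to 34724930), had 30.4, 33.3 and 32.6 CPM in controls 2, 4 and 6 and 40.5 and 62.4 CPM in mutants 5 and 7. Both mutants were above all controls, and mutant 7 exceeded mutant 5 by more than mutant 5 exceeded the controls. Its log2 fold change was 0.68 ± 0.17 (SE), with group means of 32.1 ± 1.55 CPM (SD, n = 3 controls) and 51.5 ± 15.5 CPM (SD, n = 2 mutants) and adjusted p = 0.079 in edgeR's quasi-likelihood test. Without mutant 7 it was 0.33 ± 0.09 (adjusted p = 0.074, edgeR), and without mutant 5 it was 0.96 ± 0.08 (adjusted p = 5.6e-04, edgeR). The DESeq2 call on all 5 libraries had an adjusted p of 9.8e-04.

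Notch1, the receptor of endocardium and arterial endothelium (ENSMUSG00000026923; mm9 chromosome 2, minus strand, 26315051 to 26372156), had the largest CPM of the 10 genes. It stood at 70.1, 80.05 and 78.1 CPM in the controls, against 74.7 CPM in mutant 5 and 137 CPM in mutant 7. Mutant 5 lay inside the control range and mutant 7 far above it. The log2 fold change of 0.48 ± 0.28 (SE) did not pass (adjusted p = 0.44, edgeR), turned to -0.032 ± 0.087 without mutant 7 and was 0.85 ± 0.08 without mutant 5 (adjusted p = 9.7e-04, edgeR).

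Notch3, known as the receptor of vascular smooth muscle cells and pericytes (ENSMUSG00000038146; mm9 chromosome 17, minus strand, 32258765 to 32303738), had the same pattern. It stood at 42.7, 40.9 and 30.7 CPM in the controls, against 38.7 CPM in mutant 5 and 77.8 CPM in mutant 7. Again only mutant 7 was outside the control range. The log2 fold change was 0.61 ± 0.36 (SE; adjusted p = 0.44, edgeR). It was 0.015 ± 0.20 without mutant 7 and 1.03 ± 0.19 without mutant 5 (adjusted p = 0.050, edgeR, just under the threshold).

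Notch2, a receptor with broad expression in mesenchyme and smooth muscle (ENSMUSG00000027878; mm9 chromosome 3, plus strand, 97817622 to 97951367), had 35.1, 43.1 and 42.2 CPM in the controls and 31.2 and 44.0 CPM in mutants 5 and 7. The mutants lay on both sides of the control range. The log2 fold change was -0.09 ± 0.16 (SE; adjusted p = 0.81, edgeR), and it was 0.13 ± 0.12 without mutant 5 and -0.37 ± 0.13 without mutant 7.

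Among the ligands, Dll4 rose and Dll1 had the opposite sign. Dll4, the Delta-like ligand of arterial endothelium and of sprouting vessels (ENSMUSG00000027314; mm9 chromosome 2, plus strand, 119151877 to 119160369), had 15.3, 13.6 and 15.5 CPM in controls 2, 4 and 6 and 19.0 and 25.4 CPM in mutants 5 and 7. Both mutants were above all controls. The control mean was 14.8 ± 1.07 CPM (SD, n = 3) and the mutant mean 22.2 ± 4.52 CPM (SD, n = 2), a log2 fold change of 0.58 ± 0.13 (SE; adjusted p = 0.035, edgeR). The call was lost without control 2 (adjusted p = 0.098), control 4 (0.13), control 6 (0.086) or mutant 7 (0.13, log2 fold change 0.36), all in edgeR, and it held without mutant 5 (0.0052, log2 fold change 0.78). Limma-voom gave an adjusted p of 0.062.

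Dll1, a Delta-like ligand also used in arterial endothelium (ENSMUSG00000014773; mm9 chromosome 17, minus strand, 15504994 to 15512204), had 9.04, 9.02 and 9.01 CPM in the controls, the tightest control values of the set, and 5.92 and 7.03 CPM in mutants 5 and 7. Both mutants were below all controls. The control values rest on 533, 537 and 555 counts and lie closer together than counting noise usually allows, so their spread understates the noise. The log2 fold change of -0.48 ± 0.12 (SE) missed the threshold in edgeR (adjusted p = 0.054). Dll1 was the single member called with mutant 7 left out (-0.61 ± 0.13, adjusted p = 0.039, edgeR). It was also called with library totals alone (adjusted p = 0.038, edgeR), with no filter on low counts (0.038, edgeR) and by DESeq2 (0.0091).

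The bases before the transcription starts of these Delta-like genes are shown because the estimates of this pair had opposite signs. RefSeq on GRCm38.p6 gave upstream windows of 250 bases for 9 of the 10 members (not Mfng), in 10 windows, and each is written 5′ to 3′ on the gene's strand. The Dll4 window is chr2:119325534-119325783 (plus strand). The Dll1 window is chr17:15376933-15377182 (minus strand), the upstream one of 2 listed starts. Windows were searched on both strands for short words, and capitals mark a match. One word was the core bound by RBPJ, TGGGAA. Read from the other strand that core is spelled TTCCCA. The other word was a core bound by NKX2-5, AAGTG. From the opposite strand this core reads CACTT.
Dll4: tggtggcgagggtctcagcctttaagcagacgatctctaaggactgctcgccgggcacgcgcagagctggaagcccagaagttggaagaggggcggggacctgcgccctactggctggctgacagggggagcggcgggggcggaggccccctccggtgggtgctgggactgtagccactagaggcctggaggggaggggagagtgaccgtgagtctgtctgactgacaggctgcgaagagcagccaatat
Dll1: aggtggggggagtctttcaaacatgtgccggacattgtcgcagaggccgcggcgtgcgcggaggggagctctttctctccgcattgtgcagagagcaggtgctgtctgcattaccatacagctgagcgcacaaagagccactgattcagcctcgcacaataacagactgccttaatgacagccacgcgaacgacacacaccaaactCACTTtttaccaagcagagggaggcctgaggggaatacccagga
The Dll4 window held neither word, and the Dll1 window shown held 1 NKX2-5 core. The window of the other Dll1 start (chr17:15375824-15376073) held neither word. An NKX2-5 core stood in windows of 1 of 9 members, against 40.7% of 32851 promoter windows of the same length, so a match of these letters is common and describes the sequence alone.

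The Jagged genes did not pass. Jag1, the ligand of smooth muscle and endocardial cushion signalling (ENSMUSG00000027276; mm9 chromosome 2, minus strand, 136908760 to 136941993), had 29.4, 34.5 and 32.3 CPM in the controls and 29.7 and 42.5 CPM in mutants 5 and 7. Mutant 5 lay inside the control range and mutant 7 above it, with a log2 fold change of 0.17 ± 0.15 (SE; adjusted p = 0.60, edgeR). The estimate turned to -0.12 ± 0.10 without mutant 7 and was 0.41 ± 0.10 without mutant 5 (adjusted p = 0.038, edgeR). Jag2, the other Jagged ligand (ENSMUSG00000002799; mm9 chromosome 12, minus strand, 114147100 to 114167695), had 9.36, 11.5 and 10.1 CPM in the controls against 7.14 and 12.4 CPM in mutants 5 and 7. Its mutants lay below and above all controls, and the log2 fold change was -0.08 ± 0.23 (SE; adjusted p = 0.89, edgeR), 0.27 ± 0.14 without mutant 5 and -0.54 ± 0.15 without mutant 7.

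Of the fringe enzymes, Mfng rose and Lfng did not pass. Mfng, manic fringe (ENSMUSG00000018169; mm9 chromosome 15, minus strand, 78587008 to 78603702), had 8.24, 8.13 and 6.38 CPM in controls 2, 4 and 6 and 11.3 and 16.4 CPM in mutants 5 and 7. Both mutants were above all controls, and mutant 7 was the higher one. The mutant mean of 13.9 ± 3.67 CPM (SD, n = 2) was 1.83-fold the control mean of 7.59 ± 1.04 CPM (SD, n = 3), a log2 fold change of 0.87 ± 0.18 (SE; adjusted p = 0.032, edgeR), the largest estimate in the set. The call was lost without control 2 (adjusted p = 0.082), control 4 (0.096), control 6 (0.083) or mutant 7 (0.0997, log2 fold change 0.57), all in edgeR, and it held without mutant 5 (0.0052, log2 fold change 1.12). In limma-voom the adjusted p was 0.051. In the authors' deposited table Mfng was the 1 member with an adjusted p under 0.05 (0.00295), and Dll1 (0.0571), Dll4 (0.122) and Notch4 (0.352) came next.

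Lfng, lunatic fringe (ENSMUSG00000029570; mm9 chromosome 5, plus strand, 141083370 to 141090427), had 14.2, 14.4 and 12.2 CPM in the controls and 12.3 CPM in each mutant. The mutants lay at the low end of the control range, and Lfng was the 1 member in which mutant 7 was not above mutant 5. Its log2 fold change was -0.15 ± 0.11 (SE; adjusted p = 0.49, edgeR). Its upstream window, chr5:140607091-140607340 (plus strand, GRCm38.p6, RefSeq), is shown because it was the 1 window of a member with the RBPJ core, in capitals at 2 places; 21.6% of all windows held that word.
Lfng: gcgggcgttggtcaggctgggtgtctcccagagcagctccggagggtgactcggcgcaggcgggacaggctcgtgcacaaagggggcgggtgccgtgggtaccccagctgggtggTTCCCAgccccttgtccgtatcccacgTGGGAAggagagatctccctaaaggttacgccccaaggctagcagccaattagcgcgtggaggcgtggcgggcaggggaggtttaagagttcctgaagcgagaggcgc
No data on binding at this window were part of the measurements.

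**Figure D2:**
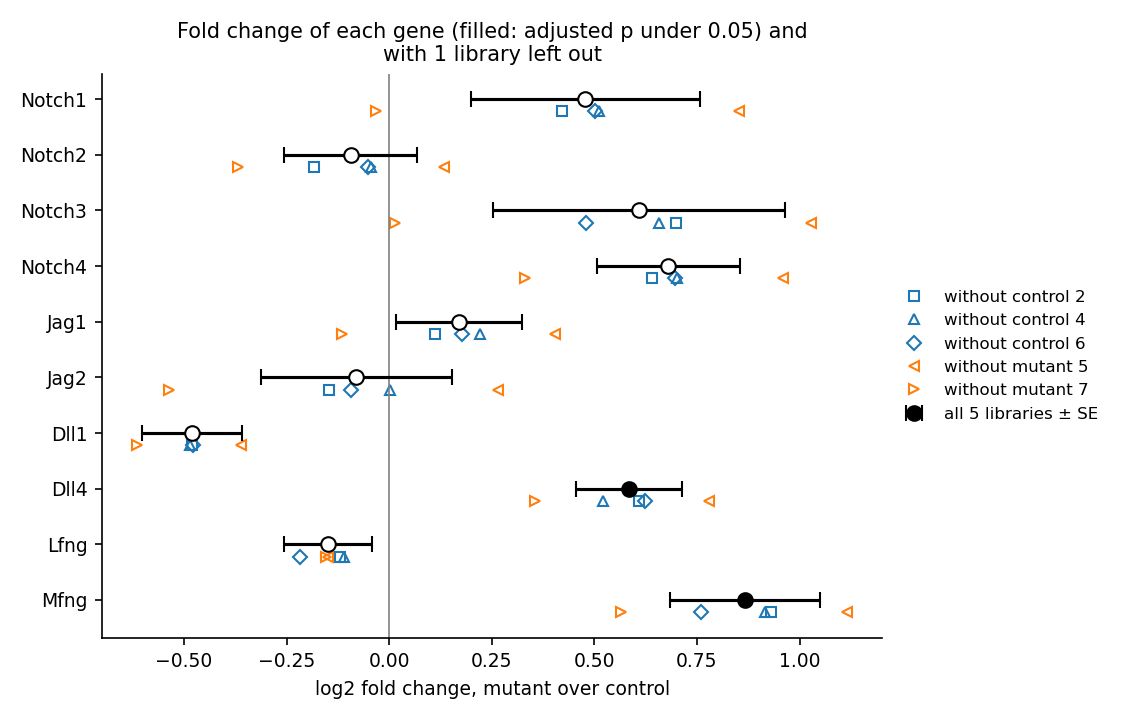
Log2 fold change (mutant over control) of each of the 10 genes, with all 5 libraries (circles with SE, filled where the adjusted p was under 0.05) and with 1 library left out at a time. Mfng and Dll4 are filled and stay positive in every fit, Dll1 stays negative in every fit, and Notch1, Notch2, Jag1 and Jag2 cross 0 when 1 library is left out.

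Ratios between paralogs within a library set the members against each other free of the scaling of libraries. There were 0.581, 0.564 and 0.522 Mfng counts for each Lfng count in controls 2, 4 and 6, against 0.918 and 1.34 in mutants 5 and 7. For Dll4 over Dll1, controls gave 1.69, 1.503 and 1.72, against 3.21 and 3.61 in mutants. Both ratios were higher in both mutants than in any control. For Dll4 over Dll1 this had to follow, since Dll4 was above and Dll1 below all controls in both mutants. The ratios restate the counts behind the levels above, and the share of gene pairs that separate the groups was not computed. For Jag1 over Jag2, controls gave 3.14, 3.00 and 3.21, against 4.17 and 3.42 in mutants, again without overlap. No p is given for these ratios, since the smallest p of an exact two-sided permutation test at this group size is 0.1.

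Levels of different genes were compared per length, as RPKM from the counts and the gene lengths listed in the deposited table. In control atria Lfng was highest, at 6.02 ± 0.526 RPKM (SD, n = 3), and Dll1 lowest, at 1.71 RPKM in each control library. In between came Notch3 (4.79 ± 0.808 RPKM), Jag1 (4.76 ± 0.385), Notch1 (3.90 ± 0.275), Dll4 (3.81 ± 0.273), Notch2 (3.67 ± 0.410), Notch4 (2.76 ± 0.137), Jag2 (2.57 ± 0.278) and Mfng (2.43 ± 0.332). Neighbours in this order had separate control ranges for Lfng and Notch3, for Jag1 and Notch1, for Notch2 and Notch4 and for Mfng and Dll1. The ranges of the other neighbours overlapped. The order depended on the length used, and the listed lengths of Notch1 (19710 bases) and Notch4 (11755 bases) exceeded their longest coding transcripts (9488 and 6591 bases). With the longest coding transcript Notch1 was highest (8.10 ± 0.571 RPKM), and with the union of exons Jag1 was (5.56 ± 0.450 RPKM).

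**Figure D3:**
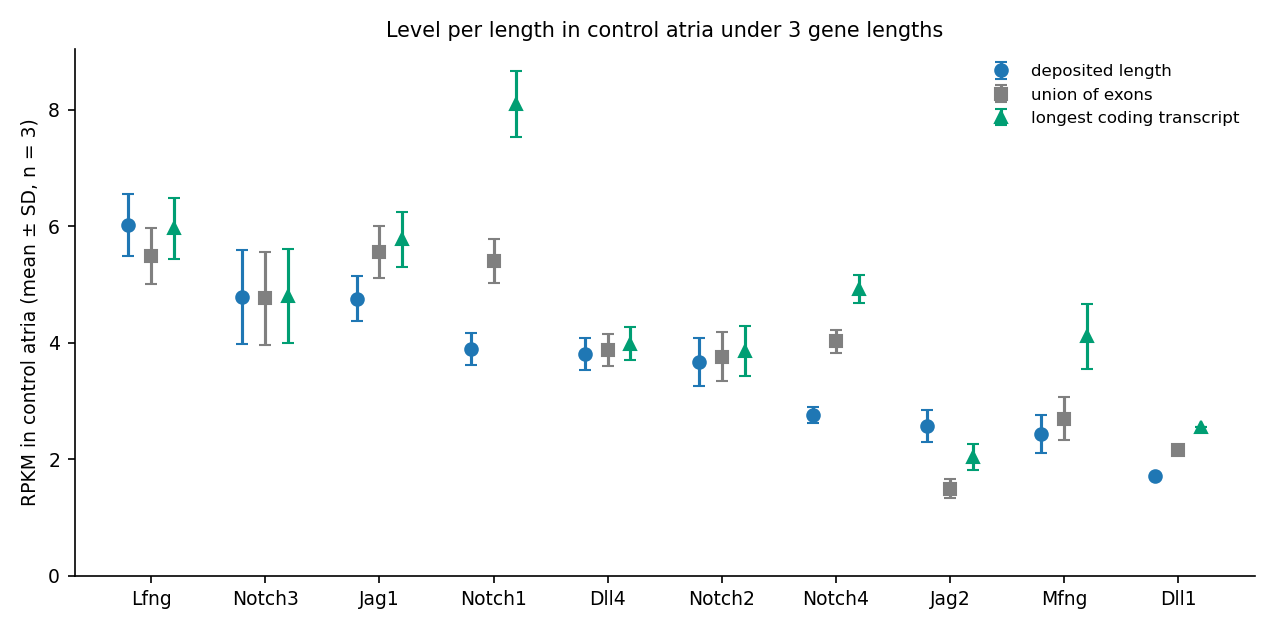
Level per length of each gene in control atria, in RPKM (mean ± SD, n = 3), computed with 3 gene lengths: the deposited length, the union of exons and the longest coding transcript of GENCODE vM21. Lfng, Notch3, Dll4 and Notch2 keep about the same level under all 3 lengths, whereas Notch1 moves from 3.90 to 8.10 RPKM.

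On the deposited lengths, each gene was also expressed as a share of its family's summed RPKM. Shares within a family are tied to each other and restate the same counts. How often such shares separate the groups over all genes was not computed. Mfng made up 28.7% ± 1.13 (SD, n = 3) of the summed fringe RPKM in controls and 44.6% ± 6.60 (SD, n = 2) in mutants. Dll4 made up 31.9%, 26.5% and 30.8% of the summed ligand RPKM in controls 2, 4 and 6, against 40.1% and 37.9% in mutants 5 and 7. Dll1 made up 13.8%, 12.9% and 13.1% in controls, against 9.18% and 7.70% in mutants, so the groups overlapped for neither gene. Jag1 held 36.1% and 36.5% in the mutants, inside its control range of 35.4% to 38.8%. Among the receptors Notch2 made up 21.7%, 24.6% and 26.6% in controls against 19.0% and 15.4% in mutants, and Notch4 made up 17.7%, 17.8% and 19.3% against 23.2% and 20.5%. The shares of Notch1 and Notch3 overlapped. Receptor RPKM summed to 14.7, 16.1 and 14.5 in controls, against 14.7 in mutant 5 and 25.4 in mutant 7.

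The excess of mutant 7 over mutant 5 was set beside transcript length, which moved with that difference over all genes. Expressed genes were sorted into 10 bins of nearly equal size by their longest coding transcript, and the median log2 ratio of mutant 7 to mutant 5 was -0.12 in the bin of shortest genes and 0.21 in the bin of longest. A length trend also stood between controls. From the shortest to the longest bin, the median log2 ratio went from -0.08 to 0.09 for control 6 over control 4. It went from -0.05 to 0.09 for control 6 over control 2 and from 0.03 to 0.005 for control 4 over control 2. Notch3, Notch1 and Notch2, all in the last bin, had log2 ratios of mutant 7 to mutant 5 of 1.01, 0.88 and 0.50. Mfng, whose length falls in a bin with a median of -0.10, had 0.55. Jag2 (0.80), Notch4 (0.63), Jag1 (0.52), Dll4 (0.42) and Dll1 (0.25) also lay above their bins' medians of -0.03 to 0.09, and Lfng was at -0.00 against -0.10. When the length trend of each library was taken out of the fit, Mfng had a log2 fold change of 0.91 ± 0.20 (adjusted p = 0.039, edgeR) and Dll4 0.57 ± 0.13 (adjusted p = 0.040, edgeR). In that fit Dll1 was called lower (-0.49 ± 0.12, adjusted p = 0.045, edgeR), and Notch4 stood at the threshold without passing (0.61 ± 0.14, adjusted p = 0.050, edgeR). Notch1 was at 0.35 ± 0.20 (adjusted p = 0.39, edgeR) and Notch3 at 0.50 ± 0.32 (adjusted p = 0.47, edgeR).

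**Figure D4:**
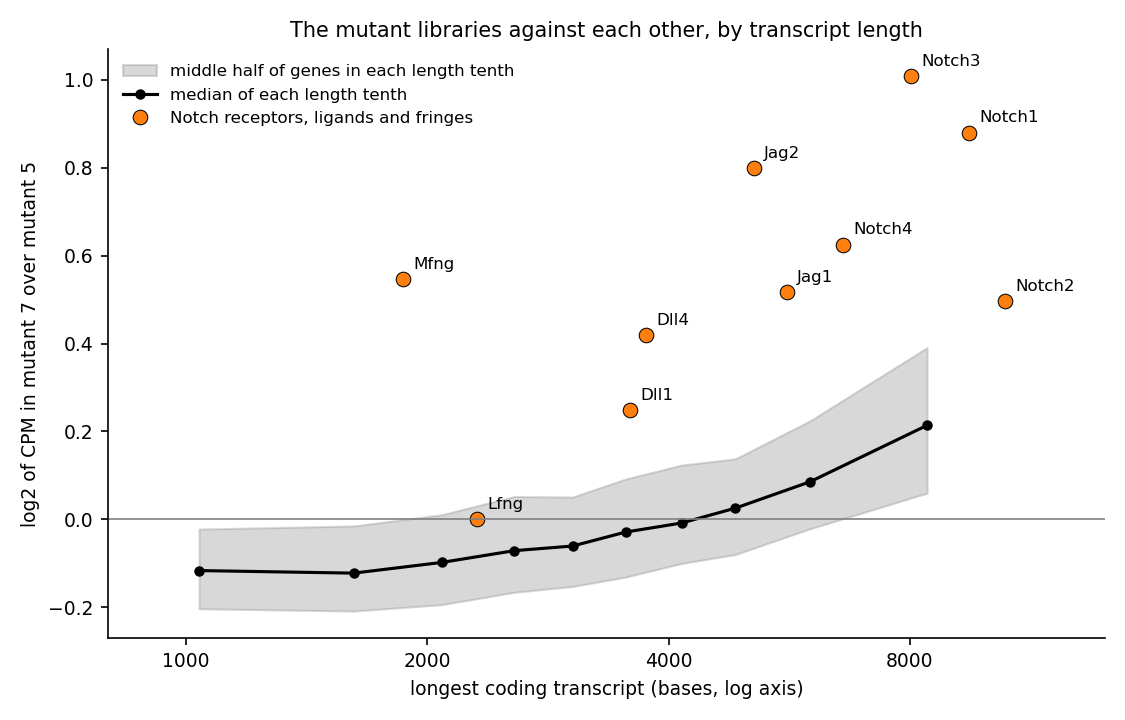
Log2 ratio of CPM in mutant 7 over mutant 5 (vertical) against the length of the longest coding transcript in bases (log axis). The black line joins the medians of the 10 length bins of expressed genes, the grey band spans their middle quartiles and orange points are the 10 genes. The median climbs from -0.12 to 0.21 with length, and every member other than Lfng lies above the band.

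Markers of vessel cells moved with some members. The summed level of 9 endothelial markers was 2005, 2093 and 2115 CPM in controls 2, 4 and 6, against 2355 and 2802 CPM in mutants 5 and 7. Of these markers 2 of 9 rose in edgeR's test, against 3.02% of all tested genes called higher: Tie1 (log2 fold change 0.33 ± 0.08, adjusted p = 0.040) and Eng (0.38 ± 0.07, adjusted p = 0.018), and the list's median log2 fold change was 0.33. Both calls were lost without control 2 (adjusted p = 0.17 and 0.11, edgeR), control 4 (0.13 and 0.080) or control 6 (0.078 and 0.052), and that of Tie1 also without mutant 7 (0.11). Set over this sum, Mfng was 0.411%, 0.389% and 0.302% in controls against 0.478% and 0.587% in mutants, and Dll4 was 0.762%, 0.648% and 0.733% against 0.806% and 0.906%. Notch4 was 1.51%, 1.59% and 1.54% against 1.72% and 2.23%, and Dll1 was 0.451%, 0.431% and 0.426% against 0.251% in each mutant. All 4 therefore stayed on the same side of the controls relative to the sum of these 9 endothelial markers, without overlap. Jag2 (0.467%, 0.551% and 0.476% against 0.303% and 0.443%), Notch2 (1.75%, 2.06% and 2.00% against 1.33% and 1.57%) and Lfng (0.707%, 0.689% and 0.578% against 0.521% and 0.438%) were lower in both mutants than in any control on this scale, and Notch1, Notch3 and Jag1 overlapped. The endothelial sum was itself higher in both mutants, so a gene with an even CPM comes out lower on this scale. In CPM, Jag2, Notch2 and Lfng overlapped between the groups. The share of all tested genes without overlap was 37.9% in CPM and was not computed on this scale. The sum of the arterial endothelial markers was also higher in both mutants (292 and 378 CPM) than in controls (225, 255 and 203 CPM). Members were not set over that arterial sum.

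Sums of other cell type lists separated the groups in some cases and overlapped in others, and their part in the members' results was not tested. For the calls below, 3.02% of all tested genes were called higher and 3.57% lower in edgeR. The 5 arterial endothelial markers summed to 203 to 255 CPM in controls and 292 and 378 CPM in mutants 5 and 7, with 1 of 5 rising, the netrin receptor gene Unc5b (0.76 ± 0.15, adjusted p = 0.039, edgeR). Its call was lost without control 2 (adjusted p = 0.13, edgeR), control 6 (0.072) or mutant 7 (0.087). The 3 lymphatic endothelial markers summed to 173 to 220 CPM in controls and 180 and 177 CPM in mutants, with 1 of 3 rising, the growth factor receptor gene Flt4 (0.65 ± 0.13, adjusted p = 0.031, edgeR), and this was lost with control 2 (0.12), control 4 (0.12) or control 6 (0.098) left out. Prox1 (-0.20 ± 0.11) and Lyve1 (-0.38 ± 0.21) had negative estimates and did not pass. Both lymphatic sums of the mutants lay inside the control range. The 3 endocardial markers summed to 614 to 738 CPM and 697 and 696 CPM, again inside the control range, and 0 of 3 passed in edgeR, DESeq2 or limma-voom, with 1 at an unadjusted p under 0.05 in edgeR. The 8 smooth muscle and pericyte markers summed to 737 to 910 CPM in controls and 2225 and 1856 CPM in mutants, of which 1 of 8 rose, the actin gene Acta2 (1.84 ± 0.14, adjusted p = 9.3e-04, edgeR). Acta2 made up most of that difference, and the other 7 markers summed to 353, 478 and 370 CPM in the control libraries against 533 and 612 CPM in the mutant ones. Fibroblast markers summed to 2874 to 3443 CPM against 2215 and 2216 CPM, and epicardial markers to 765 to 929 CPM against 531 and 533 CPM. Within these lists Dcn, Upk3b and Msln fell. Macrophage markers summed to 107 to 126 CPM against 136 and 119 CPM, which overlapped, and erythroid markers to 675 to 842 CPM against 999 and 1028 CPM. The 3 ventricular muscle markers (Myl2, Myl3 and Irx4) summed to 146, 83.8 and 242 CPM in the control libraries against 40.9 and 23.8 CPM in the mutant ones, with a median log2 fold change of -1.74. In edgeR 0 of 3 passed, with 1 at an unadjusted p under 0.05 (Myl3, adjusted p = 0.076), and DESeq2 and limma-voom called 1 each. No marker was at 0 in all libraries.

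Beyond the 10 members, 45 further genes of the pathway were followed by role, of which 43 were tested (Dll3 and Hes5 were too low). Of these, 3 rose, 2 fell and 38 did not pass, against 3.02% of all tested genes called higher and 3.57% called lower, and their median log2 fold change was 0.06. Hey2, a Hey family repressor, had 5.48, 5.58 and 6.56 CPM in the controls and 36.4 and 34.5 CPM in mutants and rose by 2.59 ± 0.10 (log2, SE; adjusted p = 6.6e-06, edgeR). Its relative Hey1 had 26.6, 25.8 and 26.1 CPM in the controls and fell to 18.0 and 16.4 CPM (-0.60 ± 0.08, adjusted p = 0.0043, edgeR). For both genes the groups were far apart and the mutants close together. The other tested targets did not pass: Hes1 had 25.4, 23.1 and 26.6 CPM against 31.5 and 26.4, Heyl 39.3, 40.6 and 27.2 against 40.9 and 48.3, and Nrarp 26.5, 21.2 and 23.0 against 27.6 and 25.2.

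Outside the targets, Neurl1b, a ubiquitin ligase of ligand uptake, rose from 15.3, 14.8 and 14.2 CPM to 25.2 and 23.1 CPM (0.71 ± 0.08, adjusted p = 0.0024, edgeR). Furin, the protease that cuts the receptor precursor, had 153, 149 and 138 CPM in the controls and 183 and 213 CPM in the mutants (0.44 ± 0.08, adjusted p = 0.018, edgeR). Dtx4, a Deltex ubiquitin ligase, fell from 20.8, 18.8 and 20.1 CPM to 15.6 and 14.0 CPM (-0.43 ± 0.09, adjusted p = 0.028, edgeR). The atypical ligand gene Dlk1 was next by p and did not pass (212, 178 and 154 CPM against 122 and 130 CPM, adjusted p = 0.066, edgeR). By role, 1 of 4 ligand uptake genes, 1 of 10 cleavage genes, 1 of 8 turnover genes and 2 of 5 target genes passed, against 6.58% of all tested genes. In edgeR 0 of 4 other ligands passed, where 3 had an unadjusted p under 0.05, DESeq2 called 1 and limma-voom 0. Of the 3 glycosylation genes and the 9 genes of the nuclear complex and its corepressors, Rbpj included (0.06 ± 0.07), 0 passed in edgeR, DESeq2 or limma-voom and 0 had an unadjusted p under 0.05 in edgeR. Egfl7 stands among the other ligands and among the endothelial markers. Hey1, Hey2 and Neurl1b passed with any 1 library left out, whereas Furin and Dtx4 lost theirs in edgeR without control 2 (adjusted p = 0.053 and 0.13), control 4 (0.071 and 0.069), control 6 (0.072 and 0.091) or mutant 7 (0.051 and 0.0997).

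**Figure D5:**
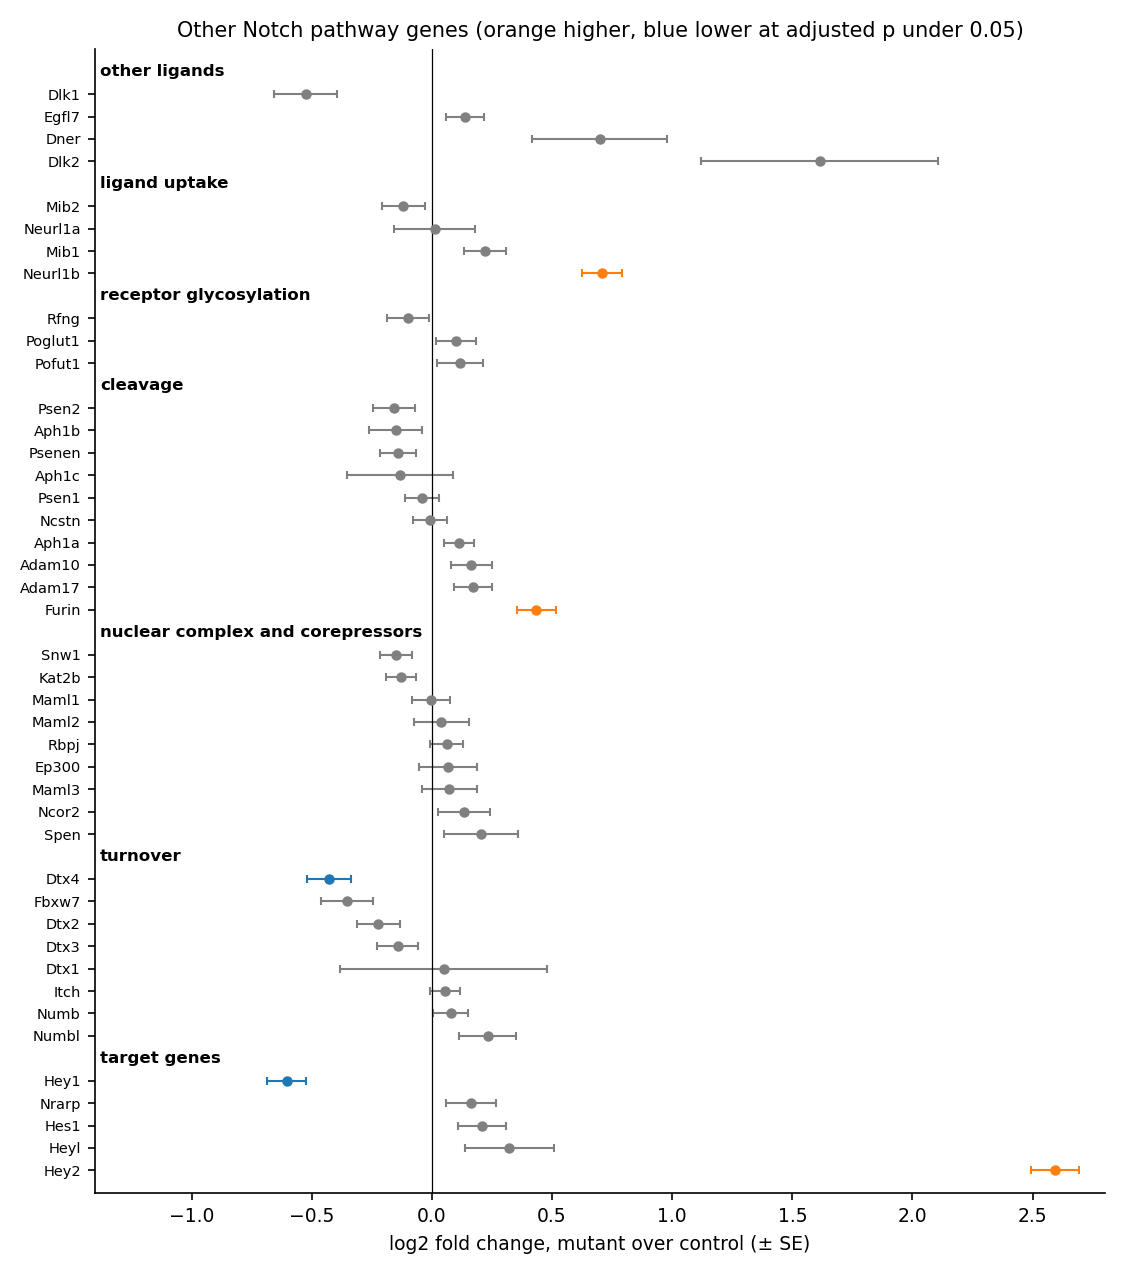
Log2 fold change (mutant over control, ± SE) of the 43 tested pathway genes outside the 10 members, grouped by role. Orange marks genes called higher and blue genes called lower at an adjusted p under 0.05: Hey2, Neurl1b and Furin rose, and Hey1 and Dtx4 fell.

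For the members whose highest and lowest library differed by 1.5-fold or more, the genes with the most similar profile over the 5 libraries were listed by the root mean square difference of centred log2 CPM. Closest to Notch1 were Gpr116 (0.039), Flt1 (0.056) and Fat4 (0.059). Sparcl1 (0.056), Pdgfrb (0.079) and Pcdh17 (0.099) were closest to Notch3, and Lrp8 (0.034), Col4a1 (0.054) and Oit3 (0.054) to Notch4. Nearest to Dll4 were Myo10 (0.061), Galnt7 (0.064) and Flt4 (0.064), and nearest to Mfng were Rgs5 (0.082), Unc5b (0.093) and Itgb1bp3 (0.102). Dll1 was matched by Susd2 (0.020), Sema6c (0.038) and Wnt9a (0.041), and Jag2 by Col5a3 (0.033), Igsf3 (0.051) and Ankrd16 (0.056). Likeness over 5 libraries is a description and carries no test.

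Some members share exonic bases with genes on the opposite strand in the reference, and no source used here says how counting treated strand. Dll4 shares 214 bases with Gm14207, which had 24 to 114 counts, and Dll1 shares 867 bases with A930024N18Rik, which had 8 to 25 counts. Notch1 shares 1068 bases with 0610009E02Rik (66 to 92 counts), and Notch3 shares 488 bases with Gm17276 (1 to 9 counts). Notch2 shares 541 bases with Gm42820 on its own strand. Mfng, Lfng, Jag1, Jag2 and Notch4 share none.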

How the data were processed

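RNA of atrial tissue was purified with Trizol and RNeasy columns and 250 ng went into each TruSeq library, per the labels' protocols. The authors deposited 1 table with raw read counts per gene and library, RPKM values pooled per group, and their own log2 ratio, p-value and adjusted p-value per gene. The deposited log2 ratio is mutant over control. The submitters' processing notes name mm9 as build and, as tools without roles, DESeq, HTSeq 0.5.4p3 and TopHat2 2.0.4. Entries for reads in no feature (3.97% to 6.03% of counts) and ambiguous reads (2.31% to 3.18%) were left out of totals and tests.

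Counts were tested with edgeR 4.0.16 in R 4.3.3 (filterByExpr with a minimum count of 10 and a total of 15, TMM, robust quasi-likelihood fit without covariates, two-sided, prior count 0.125). P-values were adjusted by Benjamini-Hochberg over all 17835 tested genes, threshold 0.05. The labels give no batch, and the groups share no replicate number. Limma 3.58.1 (voom) and DESeq2 1.42.0 were alternatives, together with other scaling, filters and thresholds and leaving out each library. Only the edgeR fit was tried on simulated counts, which had the same dispersion for every gene. The other procedures were not tried on simulated data. RPKM here are counts per M gene counts of the library, without the TMM factors, divided by gene length in kilobases. Positions are those the deposited table lists; for 9 of the 10 members their span equals that of the coding sequence in GENCODE vM21 (GRCm38), which served for lengths and shared exons.

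The members, lists and tests were chosen with earlier results of these data known. Named genes are all members, Nkx2-5, the pathway genes that passed (at least the 6 smallest p), called markers and, for each member varying 1.5-fold or more, the 3 most similar genes (mean log2 CPM 3 or above); Notch2, Jag1 and Lfng varied less. Of the called markers, Emr1 and Hba-a1 (higher) are not described in the text.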

Additional observations from a re-analysis of the deposited data

How the results depend on the processing

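No paired analysis was possible because the groups share no replicate number. Of the genes called, 1174 became 1956 in DESeq2, 391 at an adjusted p under 0.01 and 529 to 1714 with 1 library left out. The 2 members called became 4 in DESeq2, 0 in limma-voom and 0 at an adjusted p under 0.01, and 0 to 6 with 1 library left out: 0 without control 2, control 4 or control 6, 6 without mutant 5 and 1 without mutant 7. In each fit with a count of 0, edgeR or limma-voom, 4 members had an unadjusted p under 0.05. The 5 other pathway genes called became 3 at an adjusted p under 0.01 and 3 to 9 with 1 library left out. With 1 library left out, the log2 fold change ran from -0.032 to 0.85 for Notch1, -0.37 to 0.13 for Notch2, -0.12 to 0.41 for Jag1 and -0.54 to 0.27 for Jag2. Signs changed for Notch1 and Jag1 without mutant 7, for Notch2 and Jag2 without mutant 5, and for Jag2 (0.0019) without control 4. DESeq2's size factors, library totals alone, no filter and a stricter filter (1 CPM or more in 2 libraries) changed no member's sign, and Dll1 was called under the library totals and with no filter. The length trend and the other gene lengths for RPKM were chosen after seeing the data. Fits with 1 mutant left assume that it varies as the controls do. With 2 mutants that differ in 9 of 10 members, a member that missed the threshold is not shown to be unaltered.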
